A study of Mus musculus with 8 samples.

Results

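Heterotrimeric G protein subunits and the proteins that end their signal were examined across the cell types of the mouse iris. The members were chosen by gene name, as the alpha (Gna), beta (Gnb) and gamma (Gng) subunits, the regulators of G protein signaling (Rgs), the G protein-coupled receptor kinases (Grk) and the beta-arrestins (Arrb). The table of 22873 genes held 60 of them, which are 15 alpha, 5 beta and 10 gamma subunits, 21 RGS genes, 2 R7 binding proteins (Rgs7bp and Rgs9bp), 5 receptor kinases and 2 beta-arrestins.

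The study compared nuclei from untreated, dilated and constricted irises of wild-type (WT) mice, which were female, albino and 6 to 8 weeks old. Dilated irises had received 5% phenylephrine, an alpha-adrenergic agonist, with 1% cyclopentolate, a muscarinic antagonist, each hour for 6 hours while the mice were in the dark. Constricted irises had received 5% pilocarpine, a muscarinic agonist, on the same schedule in the light, and the eyes were taken 30 minutes after the last dose. How the untreated mice were lit is not stated in the sources used here. Any effect of light or dark on a comparison with them is therefore mixed with that of the drops. Each library was made from nuclei of 5 or 6 pooled irises, with 3 untreated, 3 constricted and 2 dilated libraries, and each pool also contained a variable part of the ciliary body.

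A G protein-coupled receptor acts by exchanging the guanine nucleotide on an alpha subunit, which then parts from its beta-gamma dimer so that both can reach their effectors. RGS proteins speed the hydrolysis of GTP on the alpha subunit and so end the signal, while receptor kinases phosphorylate the occupied receptor and arrestins uncouple it. In the iris, alpha1-adrenergic receptors of the dilator and M3 muscarinic receptors of the sphincter both couple to Gq, and M2-type receptors couple to Gi/o.

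In all, 34357 nuclei were profiled, with 5189437 to 25136427 unique molecular identifiers (UMIs) per library and a median of 2775 to 4697.5 UMIs per nucleus. UMIs were summed over the nuclei of each of the 10 cell types that the authors assigned, and levels are given as counts per 1000000 UMIs of the library and cell type (CPM, mean ± SD over libraries). The libraries are the replicates and come from separate pools, so that each p-value within a cell type measures the spread between pools, with 2 or 3 per condition. The joint fits of a pair of cell types have a term for each library. Their p-values measure the spread left in the difference between the cell types, estimated with information shared over genes. Untreated replicate 1 and dilated replicate 1 shared 63 cell barcodes (4.26% of the nuclei of the smaller library), of which 59 had the same cell type in both, while the other pairs of libraries shared 0 to 18. The cell type was also the same for 13 of 14 between untreated and constricted replicate 1 and for 11 of 18 between constricted and dilated replicate 1. In the remaining pairs it was the same for 0 to 3. All 11 calls given below were also made without the nuclei that had a shared barcode, where 12 calls were made in all. Dilator markers were present in the dilator cluster, with Adra1a at 456 to 507 CPM in the 3 untreated libraries. Of the sphincter 1 markers, Ckm and Nptx2 were below 2 CPM there. Ctnna3 was at 27.7 to 69.8, Chrm3 at 18.0 to 25.3 and Ttn at 8.30 to 11.8 CPM.

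To set different genes side by side, CPM was divided by the length of the whole gene, introns included (CPM per kb). Whether UMIs of this 3′ chemistry scale with gene length was not tested. This scale raises short genes, and the order of genes can differ in CPM. Among the alpha subunits, Gnas, which stimulates adenylyl cyclase, had the highest level of the Gs class in each of the 3 muscle clusters, with 5.96 ± 0.27 CPM per kb in dilator muscle, 6.63 ± 0.87 in sphincter 1 and 5.84 ± 0.16 in sphincter 2 (SD, n = 3 untreated libraries). Gnao1, the Go alpha subunit, led the Gi class in dilator muscle, at 4.20 ± 0.47 CPM per kb against 2.78 ± 0.54 for Gnai2. In sphincter 1 the order of Gnai2 (1.92 ± 0.74) and Gnao1 (1.87 ± 0.25) was not resolved, and in sphincter 2 Gnao1 was at 3.28 ± 0.35 CPM per kb. Of the genes that couple to phospholipase C, Gna11 led per kb in dilator muscle (1.52 ± 0.16, against 1.06 ± 0.01 for Gnaq), while in sphincter 1 (1.54 ± 0.45 against 1.16 ± 0.06) and sphincter 2 (2.14 ± 0.70 against 1.81 ± 0.14) the order was not resolved. Gnaq, a longer gene, led in CPM (269.9 ± 3.38, 294 ± 14.1 and 461 ± 36.4). Gna13 led the G12 class in all 3 muscle clusters, with 1.15 ± 0.02 CPM per kb in dilator muscle.

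Gnb1 had the highest level per kb of the beta subunits, at 3.28 ± 0.19 in dilator muscle, 2.55 ± 0.32 in sphincter 1 and 3.77 ± 0.84 in sphincter 2, with Gnb4 next in each. Gnb2 overlaps another gene on the same strand and had 15 UMIs in all 8 libraries, so that its place is less certain. Of the gamma subunits, Gng5 led in dilator muscle (11.5 ± 1.05 CPM per kb) and sphincter 2 (9.24 ± 1.13). The levels of Gng3 (7.54 ± 3.89) and Gng5 (6.89 ± 2.21) in sphincter 1 overlapped within their spread. In CPM, Gng12 led in all 3 muscle clusters, with 160.1 ± 19.0 in dilator muscle and 282 ± 6.24 in sphincter 1. Gng10, with 21 UMIs in all 8 libraries, also overlaps another gene on the same strand.

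Rgs11, of the R7 family, had the highest level per kb among RGS genes in the muscle clusters, with 9.60 ± 1.39 in dilator muscle, 5.16 ± 1.14 in sphincter 1 and 5.79 ± 1.74 in sphincter 2. In CPM, Rgs7 was above Rgs11 in sphincter 1 (144 against 43.2). The R7 RGS proteins (Rgs6, Rgs7, Rgs9 and Rgs11) act on Gi/o subunits, pair with the beta subunit Gnb5 and are held at the membrane by R7 binding proteins. The leaders of the other families were far lower per kb in dilator muscle, with 0.63 ± 0.09 CPM per kb for Rgs19 (RZ family), 0.31 ± 0.01 for Rgs12 (R12 family) and 0.27 ± 0.16 for Rgs2 (R4 family). In CPM, Rgs3 (5.37) was above Rgs2 (1.29) there. Rgs5, a pericyte marker elsewhere, had 100 UMIs in all 8 libraries together. Grk6 led the receptor kinases per kb (1.28 ± 0.16 CPM per kb in dilator muscle, 1.13 ± 0.68 in sphincter 1 and 2.14 ± 0.58 in sphincter 2). In CPM, Grk5 (52.9) and Grk4 (43.4) were above Grk6 (20.3) in dilator muscle. Arrb2 was above Arrb1 per kb in each muscle cluster, with 1.56 ± 0.07 CPM per kb in dilator muscle. Rgs7bp led the R7 binding proteins, with 0.39 ± 0.05 CPM per kb in dilator muscle.

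**Figure D1:**
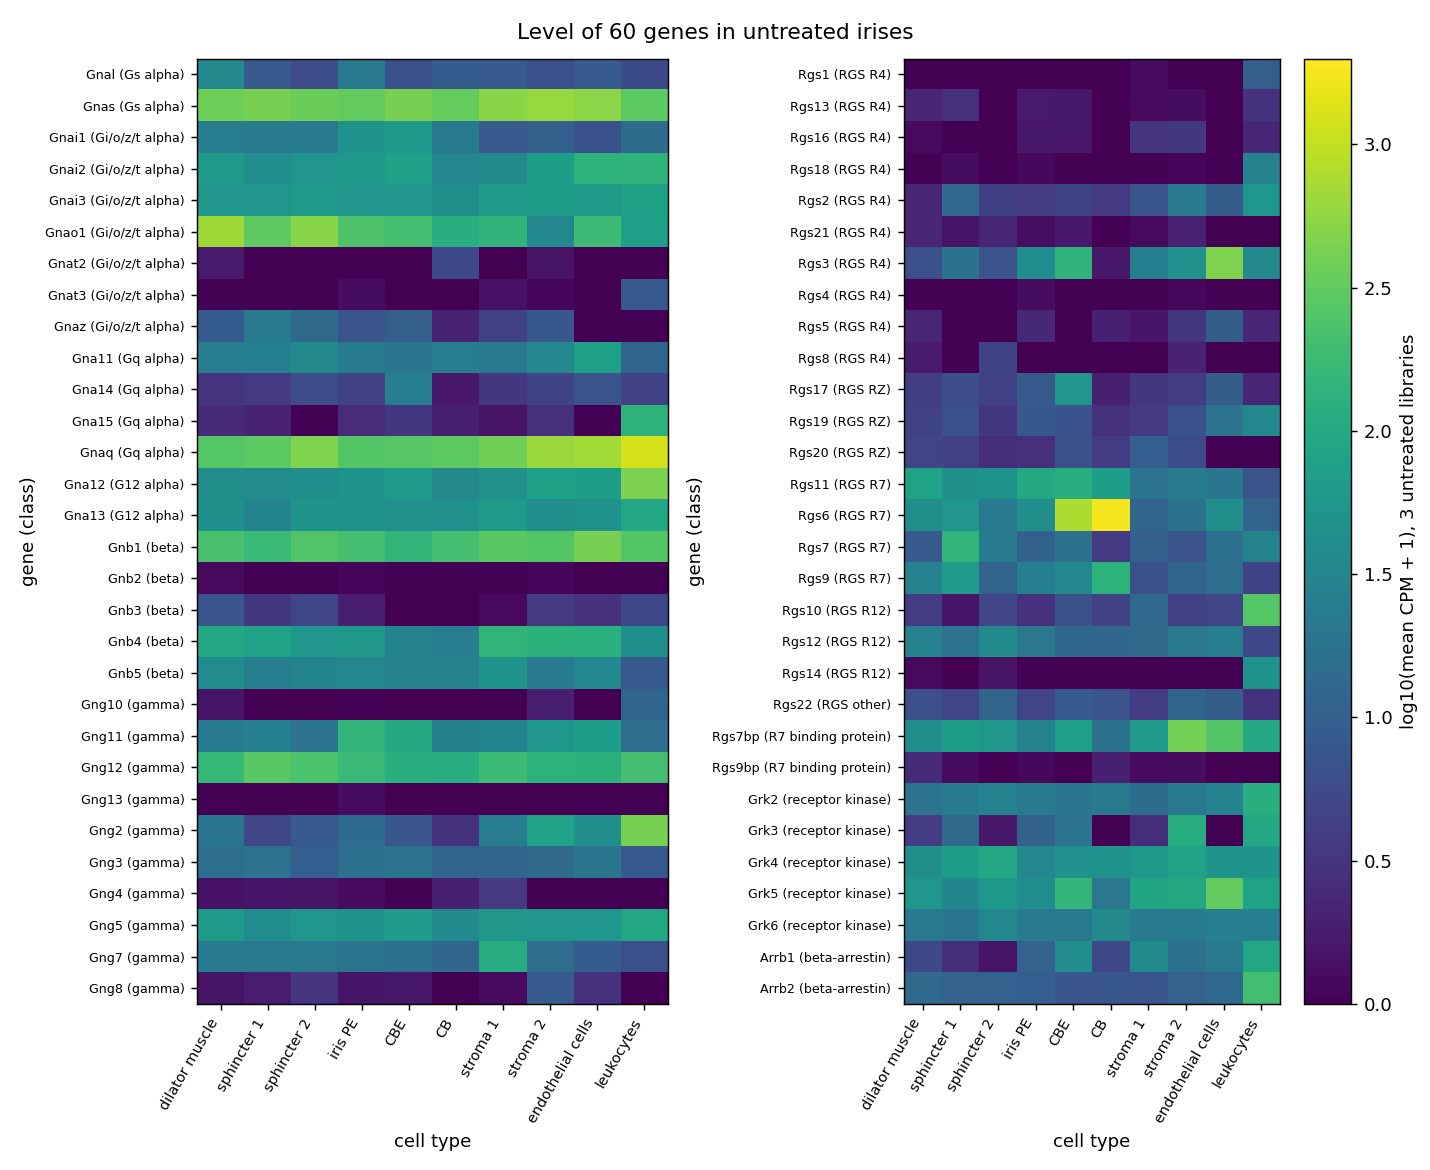
Heat map of the 60 members (rows, with their class) over the 10 cell types (columns), coloured by log10 of the mean CPM plus 1 in the 3 untreated libraries. The brightest cell was Rgs6 in CB, and Gnao1 was brightest in dilator muscle. Leukocytes held the highest level of 13 of the members with at least 20 UMIs in their highest cell type.

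Among the 44 members with at least 20 UMIs in their highest cell type over the untreated libraries, leukocytes were that cell type for 13, stroma 2 for 6 and dilator muscle for 4. A member was called restricted if its level in the highest cell type was at least 4 times that in the next, and 10 members met this limit. Since the clusters were made from the same counts, these levels are descriptions without a test. The restricted members of leukocytes were Gna15 (135 CPM, 55.2-fold over the next cell type), Rgs10 (265 CPM, 21.5-fold), Arrb2 (201 CPM, 15.7-fold), Gna12 (445 CPM, 5.84-fold), Gng2 (423 CPM, 5.43-fold) and Grk2 (121 CPM, 4.29-fold). Rgs10 overlaps another gene on the same strand, so that its counts are less certain. In CBE, the ciliary body epithelium, they were Rgs17 (51.7 CPM, 6.16-fold) and Gna14 (25.1 CPM, 4.09-fold). Gng7 was restricted to stroma 1 (110.3 ± 3.29 CPM, 5.03-fold over dilator muscle) and Rgs7 to sphincter 1 (144 ± 48.7 CPM, 4.93-fold over leukocytes). Leukocytes contributed few UMIs, and the next level for Rgs7 rests on 7 of them. Gna14 and Grk2 fell under the limit when any 1 untreated library was left out, Rgs7 when untreated replicate 3 was, and over all 8 libraries Gna12, Gna14, Grk2 and Rgs7 did.

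Dilation was compared with the untreated state by edgeR's quasi-likelihood test within each cell type, and a gene was called where its log2 fold change exceeded 0.6 in either direction with a Benjamini-Hochberg adjusted p below 0.05 over the genes tested in that cell type. In the 10 cell types, 259 pairs of member and cell type were tested, and 11 were called, of which 5 were higher and 6 lower with dilation, where 3.34% of all pairs of gene and cell type were called. These 11 calls were made for 9 genes. Of the 60 members, 45 could be tested in at least 1 cell type and the other 15, with 15 to 103 UMIs each, in none. Gnb2 and Gng10, which overlap another gene on the same strand, were among these 15. At an unadjusted p under 0.05, 13.9% of the pairs of members passed, against 13.1% of all pairs, and DESeq2 called 10.

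Dilator muscle held 9 of the 11 calls. Of the 43 members tested there, 4 were higher (Rgs7, Rgs2, Gnas and Gng5) where 7.2% of all genes were called higher, and 5 were lower (Rgs7bp, Gnal, Gnaz, Rgs9 and Gng7) where 6.14% of all genes were called lower. The median log2 fold change was 0.04 over the members and 0.02 over all 15395 genes tested. The dilated and untreated CPM did not overlap even for Gnaq and Gnb5, whose log2 fold changes were -0.02 and 0.04. A lack of overlap thus does not by itself mark a change. The share without overlap over all genes is not given here. Scaling to UMI totals without normalization factors moved the median of all genes by -0.18, and the share of calls that were higher from 54.0% to 32.2%. With that scaling 1 member was called higher (Rgs7), against 4.72% of all genes, and 9 lower, against 9.95%.

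**Figure D2:**
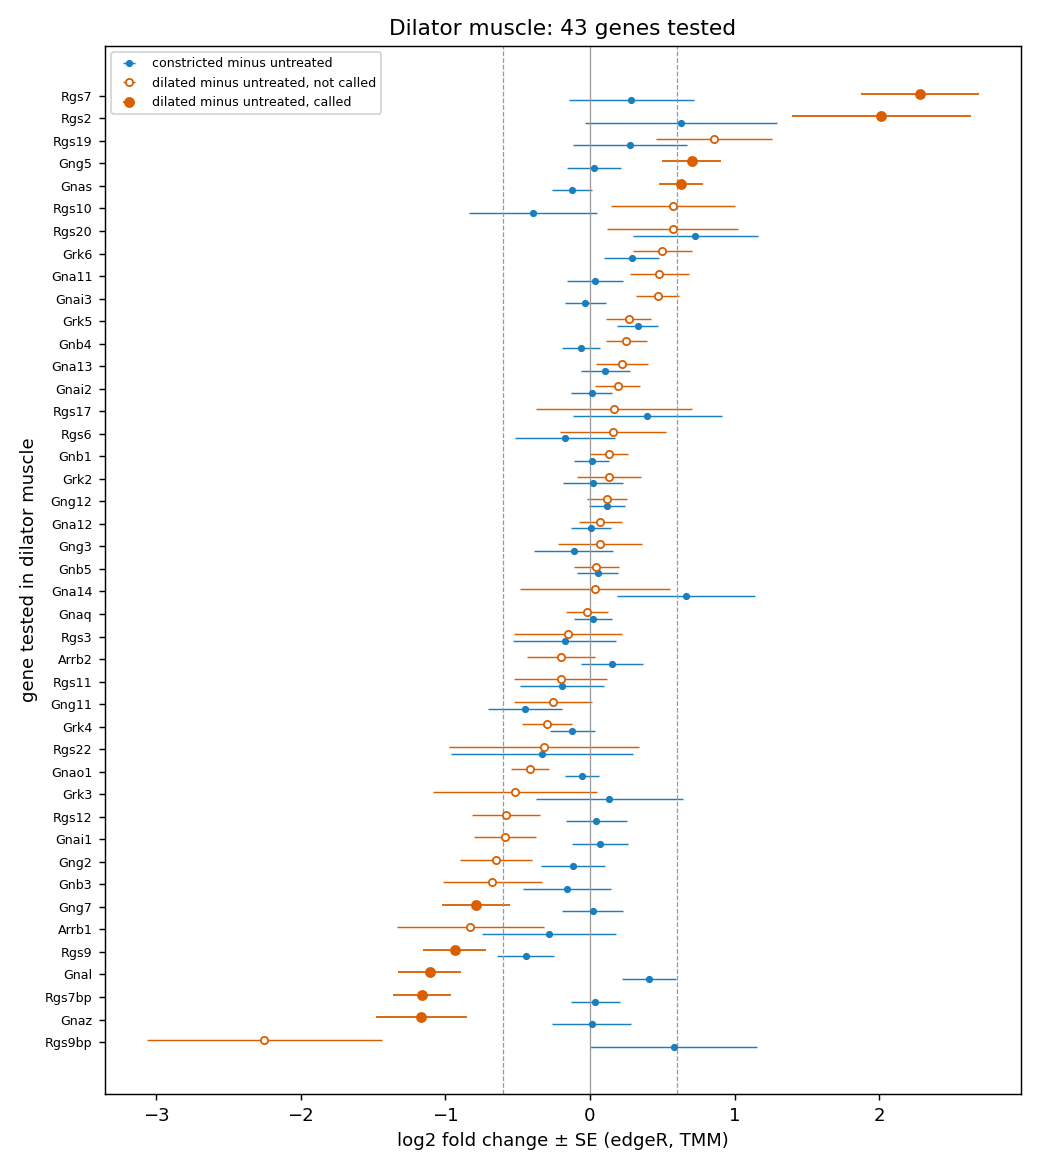
Log2 fold change with its standard error (x axis) of the 43 members tested in dilator muscle (y axis, ordered by the dilated change). Filled orange points are dilated minus untreated and called, open orange points not called, blue points constricted minus untreated, and dashed lines mark 0.6 in either direction. The 9 called members ran from Rgs7 at 2.28 to Gnaz at -1.17.

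Rgs7 rose in dilator muscle and fell in sphincter 1. In dilator muscle it had 15, 5.07 and 3.80 CPM in the untreated libraries (24, 36 and 24 UMIs), 31.5 and 23.2 CPM in the dilated libraries (319 and 116 UMIs) and 9.10, 10.2 and 4.50 CPM in the constricted libraries. Both dilated libraries were above all others, and the level rose by 2.28 ± 0.41 on the log2 scale (SE, edgeR adjusted p = 0.0028). In sphincter 1, Rgs7 had 199, 126 and 107 CPM in the untreated libraries (37, 79 and 118 UMIs), 40.9 and 27.7 CPM in the dilated libraries (15 and 12 UMIs) and 148, 230.0 and 106 CPM in the constricted libraries. The dilated libraries were below all others, and Rgs7 fell by 1.92 ± 0.37 on the log2 scale (SE, edgeR adjusted p = 0.0054), where 1.32% of all genes were called lower. Rgs7 was the only one of the 21 members tested in sphincter 1 that was called. The call in sphincter 1 was lost without dilated replicate 2 (-1.68, edgeR adjusted p = 0.128), while that in dilator muscle was made under each of 17 alternatives, with changes of 1.90 to 2.76.

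The difference between dilator muscle and sphincter 1 was itself tested, in a joint fit of both clusters with a term for each library. The dilation effect on Rgs7 was 4.29 ± 0.33 higher in dilator muscle than in sphincter 1 on the log2 scale (SE, edgeR adjusted p = 1.3e-19), and it ranged from 4.02 to 4.54 under 13 alternatives. With only 2 dilated libraries, so small a p leans on the spread shared over genes. In sphincter 2, the smaller sphincter cluster, both dilated libraries were above the untreated ones. Rgs7 had there 18.3, 16.6 and 28.2 CPM untreated and 66.7 and 68.1 CPM dilated, but its change of 1.63 ± 0.47 was not called (SE, edgeR adjusted p = 0.0522). Its 3 constricted libraries, at 42.2, 57.7 and 4.22 CPM, overlapped the untreated ones. Iris PE, the posterior pigment epithelium, had 14.2, 7.76 and 6.93 CPM untreated and 9.36 and 4.11 CPM dilated, and the effect on Rgs7 was 2.58 ± 0.33 higher in dilator muscle than there (SE, edgeR adjusted p = 6.5e-06). The library numbers were grouped here into series at their gaps, since the labels name none, and constricted replicate 2 stood alone. Replicate 1 of each condition lies in one series. Untreated replicates 2 and 3, constricted replicate 3 and dilated replicate 2 lie in another. Within the first, Rgs7 went from 15 to 31.5 CPM in dilator muscle and from 199 to 40.9 in sphincter 1, and within the second from 5.07 and 3.80 to 23.2 and from 126 and 107 to 27.7.

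**Figure D3:**
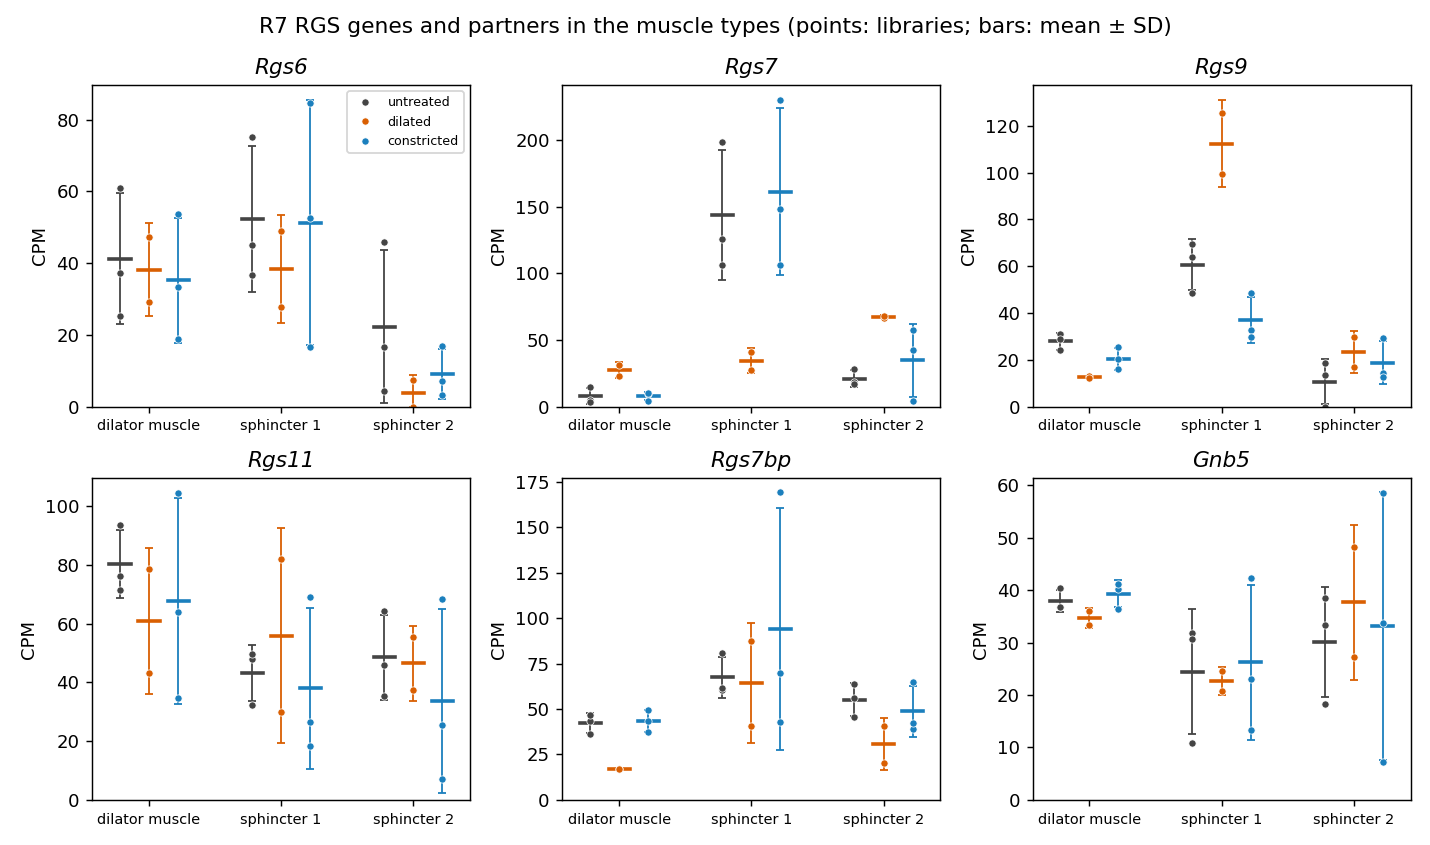
CPM (y axis) of Rgs6, Rgs7, Rgs9, Rgs11, Rgs7bp and Gnb5 in dilator muscle, sphincter 1 and sphincter 2, by condition. Points are libraries and bars the mean ± SD. For Rgs7 both dilated libraries lay above all others in dilator muscle and below all others in sphincter 1, and Rgs9 had the opposite order in each.

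More nuclei of dilated dilator muscle had an Rgs7 UMI. After each nucleus was thinned to 1000 UMIs, the share in dilator muscle was 0.781% untreated (0.398% to 1.45%) and 2.47% dilated (2.06% to 2.88%), and unthinned it was 2.99% and 7.64%. In iris PE the thinned share was 1.00% untreated and 0.657% dilated, so that the untreated level in dilator muscle was no higher than in a neighbouring epithelium, and only the dilated level was above it. Median depths were 3344.5 to 3926 UMIs per nucleus in untreated and 3660 to 3800 in dilated dilator muscle, and 3015 to 3581 and 3006 to 3139 in iris PE. Thinning left out 26 and 3 nuclei of dilator muscle and 37 and 34 of iris PE. In sphincter 1 the thinned share was 12.6% untreated and 3.09% dilated, and in sphincter 2 it was 2.04% and 6.78%.

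Nuclei with several Rgs7 UMIs were counted after the values had been seen, as a description. In dilator muscle 76 of 3873 dilated nuclei (1.96%) had at least 2 UMIs of Rgs7, 56 in replicate 1 and 20 in replicate 2, with up to 12 in a nucleus. None of 4357 untreated and none of 3376 constricted nuclei did. Those nuclei held 84 and 89 Rgs7 UMIs in all, against 435 in the dilated ones. At so few UMIs, nuclei with 2 are rare, and this count is not separate support for the rise. Nuclei of 1 library are also not replicates. The 5 sphincter 1 markers summed to 40.9 and 36.6 CPM in the dilated nuclei with at least 2, and to 65.9 and 43.4 CPM in the other dilated dilator nuclei. Ckm and Nptx2 were at 0 in the former, which held only 219877 and 81949 UMIs, and at 0.303 to 1.02 CPM in the others. At these totals a 0 cannot tell the sets apart. The dilator marker Adra1a was at 291 and 256 CPM in the nuclei with at least 2 Rgs7 UMIs and at 345 and 243 CPM in the others. The median depth was 3900.5 and 4145.5 UMIs in the former, against 3799 and 3657.5 in the others.

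In sphincter 1, other markers moved beside Rgs7. The 5 sphincter 1 markers summed to 6707 to 7790 CPM in the untreated and 5294 to 6327 CPM in the dilated libraries, and the 3 markers of iris PE to 1269 to 1631 CPM and 2275 to 2364 CPM. Most of the latter sum was Pax6 (1118 to 1343 CPM untreated and 1991 to 2059 dilated), which the muscle clusters also express, while Zic1 was at 10.8 to 90.3 and 129 to 136 CPM and Otx1 was at 139.8 to 201 and 155 to 169 CPM. Their part in the fall of Rgs7 was not tested. Over dilator muscle as a whole the sphincter 1 markers summed to 54.7 to 108 CPM untreated, 43.3 to 65.4 dilated and 52.8 to 91.0 constricted. The dilator markers summed there to 2737 to 3178 CPM untreated and 3000 to 3247 constricted. They were lower with dilation, at 2176 and 2002 CPM in the dilated nuclei with under 2 Rgs7 UMIs. The part of this fall in the calls of dilator muscle was not tested.

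The partners of Rgs7 gave a different picture. Rgs7bp, which anchors R7 complexes at the plasma membrane, had 36.2, 43.3 and 47.0 CPM in untreated dilator muscle, 16.9 and 17 CPM in dilated and 43.4, 37.2 and 49.5 CPM in constricted. The dilated libraries lay below all others, with a fall of 1.16 ± 0.20 on the log2 scale (SE, edgeR adjusted p = 0.0022) that was called under each of 17 alternatives. In sphincter 1, Rgs7bp had 80.6, 60.6 and 61.4 CPM untreated and 40.9 and 87.7 CPM dilated, which overlapped. The effect on Rgs7bp in dilator muscle was 1.24 ± 0.34 below that in sphincter 1 (SE, edgeR adjusted p = 0.0108), but this was lost without dilated replicate 2, without untreated replicate 3 and without the 5% deepest nuclei (smallest difference -0.63). The highest level of Rgs7bp was that of stroma 2, at 451, 381 and 383 CPM untreated.

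Rgs9, another R7 member known from photoreceptors and striatum, had 31.2, 28.7 and 24.0 CPM in untreated, 13 and 12.4 CPM in dilated and 20.3, 25.3 and 15.9 CPM in constricted dilator muscle. Both dilated libraries were the lowest, and Rgs9 fell by 0.94 ± 0.22 (SE, edgeR adjusted p = 0.0129), a call lost without dilated replicate 1, without dilated replicate 2 or without untreated replicate 2 (adjusted p up to 0.0892). In sphincter 1 it had 48.4, 63.8 and 69.5 CPM untreated, 125 and 99.2 CPM dilated and 32.9, 48.4 and 29.9 CPM constricted, so that Rgs9 and Rgs7 had opposite orders of the dilated and untreated libraries in dilator muscle and in sphincter 1. The change of Rgs9 in sphincter 1 alone was not called (0.83 ± 0.26, SE, edgeR adjusted p = 0.123), but the effect in dilator muscle was 1.71 ± 0.29 below that in sphincter 1 (edgeR adjusted p = 3.45e-06), a difference called under all 13 alternatives.

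Rgs11 (93.5, 76.1 and 71.5 CPM untreated and 78.5 and 43.3 CPM dilated) and Gnb5 (36.8, 36.7 and 40.3 CPM and 36.0 and 33.3 CPM) were not called in dilator muscle. For Gnb5 the fitted change was 0.04 ± 0.15 (SE) on the log2 scale. Rgs9bp, the anchor of Rgs9, had 0, 2.81 and 1.58 CPM untreated and 0.296 and 0.401 CPM dilated, which is 30 and 5 UMIs, and was not called (-2.25 ± 0.81, SE, edgeR adjusted p = 0.0867).

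**Figure D4:**
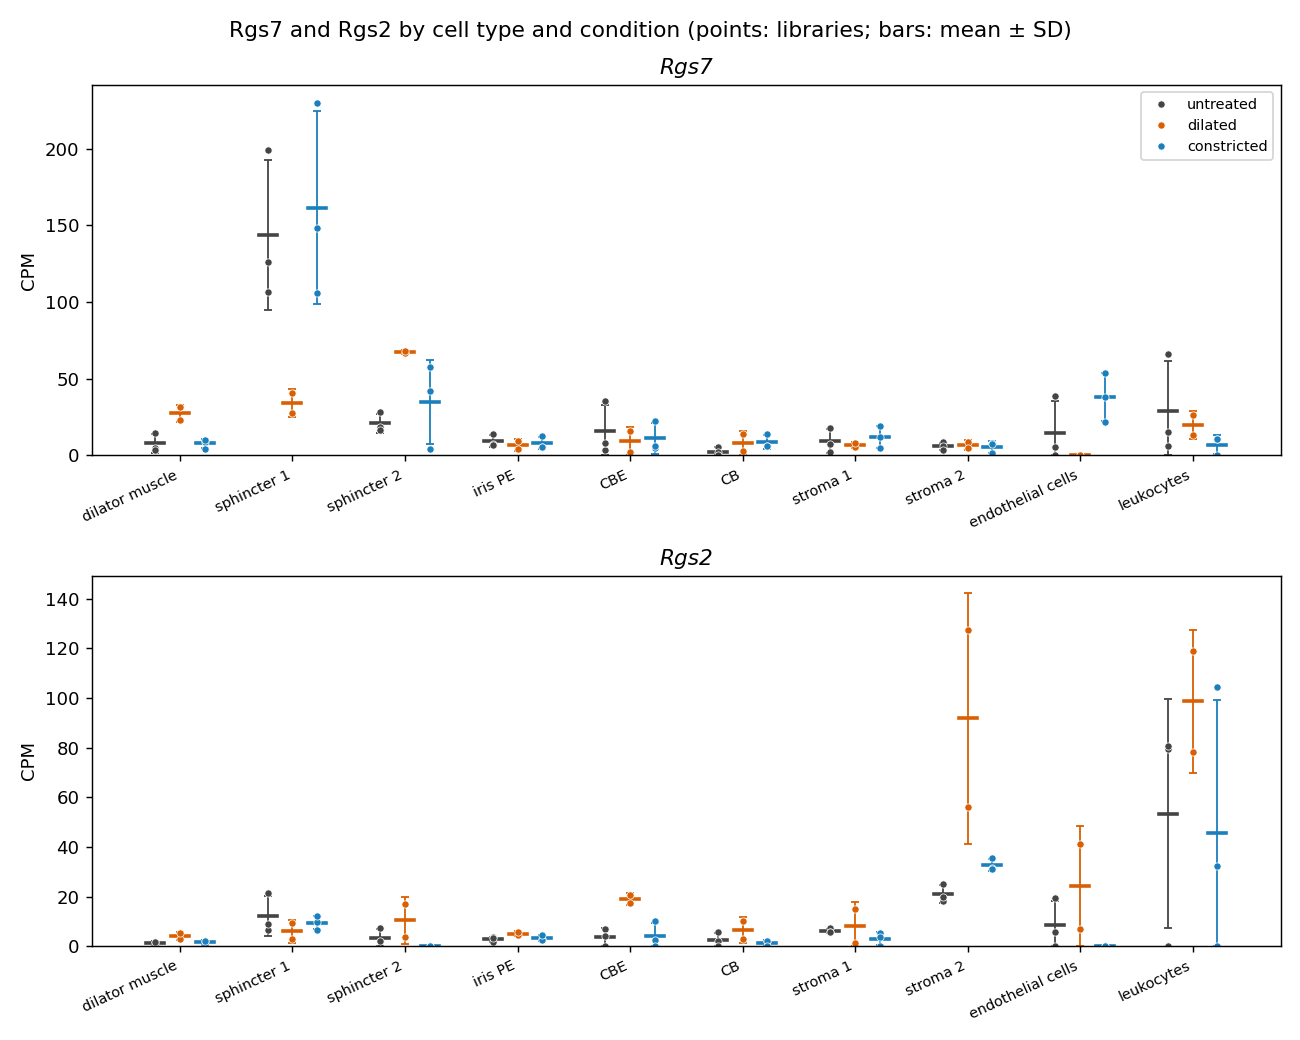
CPM (y axis) of Rgs7 and Rgs2 over the 10 cell types, by condition, with points for libraries and bars for the mean ± SD. Rgs7 was highest in sphincter 1 in the untreated and constricted libraries and in sphincter 2 in the dilated libraries, and Rgs2 in stroma 2 was higher in both dilated libraries than in the others.

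Rgs7 lies on chromosome 1 (mm10, 175059087 to 175492500, minus strand), Rgs7bp on chromosome 13 (104945904 to 105054930, minus strand) and Rgs9 on chromosome 11 (109225355 to 109298129, minus strand). The 250 bases before the RefSeq start of 3 called genes are shown, because Rgs7 and Rgs7bp moved in opposite directions in one cell type and Rgs2 was called in a pair of cell types, with the half-site TGACG of cAMP response elements (either strand) in capitals.
Rgs7 (GRCm38.p6, chr1:175492546-175492795, minus strand): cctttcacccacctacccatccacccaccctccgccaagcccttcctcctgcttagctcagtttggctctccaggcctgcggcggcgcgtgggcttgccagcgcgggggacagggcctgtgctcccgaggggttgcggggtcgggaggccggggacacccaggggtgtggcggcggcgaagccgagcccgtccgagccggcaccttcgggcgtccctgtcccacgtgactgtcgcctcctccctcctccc
Rgs7bp (chr13:105054931-105055180, minus strand): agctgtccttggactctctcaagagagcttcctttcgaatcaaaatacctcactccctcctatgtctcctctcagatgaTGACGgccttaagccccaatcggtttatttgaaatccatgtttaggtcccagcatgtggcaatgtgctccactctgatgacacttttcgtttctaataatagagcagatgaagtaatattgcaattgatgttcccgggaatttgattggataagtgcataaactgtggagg
Rgs2 (chr1:144004150-144004399, minus strand): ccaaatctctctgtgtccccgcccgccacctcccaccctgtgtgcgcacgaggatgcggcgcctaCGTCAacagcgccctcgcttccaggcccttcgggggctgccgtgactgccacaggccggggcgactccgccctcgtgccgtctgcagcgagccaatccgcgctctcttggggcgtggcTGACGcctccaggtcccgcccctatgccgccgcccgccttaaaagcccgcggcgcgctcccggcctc
The window of Rgs2 held 2 copies of TGACG, that of Rgs7bp 1 and that of Rgs7 none, and 17.8% of 32851 RefSeq promoter windows of this length held at least 1. Of the 9 called genes 7 had a promoter in the table, with 11 windows, and 6 windows of 4 genes (Gnas, Gng7, Rgs2 and Rgs7bp) held it. A pair of these windows, both of Gnas (chr2:174327499-174327748 and chr2:174327518-174327767), overlapped and held the same copy, so that the windows are not independent. The letters TGANTCA of AP-1 sites (6.75% of windows) and GCGTGGGCG of EGR sites (0.536%) were in none of the 11. These matches describe the letters and not binding.

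Rgs2 was called higher in 2 cell types. It is an R4 family member that acts on Gq and is known for its induction by many stimuli, and lies on chromosome 1 (143999338 to 144004161, minus strand). In stroma 2, one of the stromal clusters, Rgs2 had 18.1, 19.7 and 24.9 CPM untreated, 56.1 and 127 CPM dilated and 31.4, 31.2 and 35.4 CPM constricted. Every dilated library was above every other, and Rgs2 rose by 2.11 ± 0.32 (SE, edgeR adjusted p = 0.0076), where 1.35% of all genes were called higher, as the only one of 39 members tested there. Dilated replicate 2 was well above dilated replicate 1, and the change was 1.36 without dilated replicate 2 and 2.65 without dilated replicate 1, still called. Without untreated replicate 2 the adjusted p was 0.0538.

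The thinned share of stroma 2 nuclei with an Rgs2 UMI was 1.87% untreated (1.65% to 2.16%), 7.61% dilated (4.75% and 10.5%) and 3.07% constricted (2.91% to 3.23%), and in dilator muscle it was 0.133% untreated and 0.408% dilated. Unthinned, the shares in stroma 2 were 4.42%, 15.6% and 7.90%, and median depths in stroma 2 were 2381 to 2999 UMIs untreated and 2281.5 to 2659 dilated. Of the 5 listed endothelial markers, Cldn5 and Erg were higher in stroma 2 with dilation and the others were not. The 5 summed to 133 to 152 CPM untreated, 460 to 685 CPM dilated and 93.7 to 215 CPM constricted. Most of this was Cldn5 (99.1 to 132 CPM untreated, 373 to 631 dilated) with Erg (4.25 to 7.51 and 23.4 to 58.5). Pecam1 was at 14.4 to 45.9 CPM untreated and 26.7 to 30.4 dilated. Icam2 was at 0 in both dilated libraries and Cdh5 at 0 to 1.62 CPM. Endothelial cells themselves had 24.1 ± 24.1 CPM of Rgs2 when dilated, from only 3 UMIs. Any part of endothelial material in the level of Rgs2 in stroma 2 was not tested.

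In dilator muscle, Rgs2 had 1.87, 0.422 and 1.58 CPM untreated (3, 3 and 10 UMIs) and 3.06 and 5.21 CPM dilated (31 and 26 UMIs). The groups did not overlap and the change was 2.02 ± 0.62 (SE, edgeR adjusted p = 0.0459), but the call was lost under 7 of 17 alternatives, among them UMI totals, DESeq2 and leaving out dilated replicate 1 or 2 or untreated replicate 2 or 3, with adjusted p up to 0.29. The thinned share of nuclei with an Rgs2 UMI in dilated dilator muscle (0.408%) was below that in dilated iris PE (0.529%). Untreated, it was 0.0472% to 0.18% in dilator muscle and 0.151% to 0.382% in iris PE. Whether these UMIs were background in either cell type was not tested. In sphincter 1, Rgs2 had 21.5, 6.38 and 9.03 CPM untreated and 2.73 and 9.23 CPM dilated, from 18 and 5 UMIs, and was not among the members tested.

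Of the alpha subunits, 3 were called in dilator muscle. Gnal, the olfactory relative of Gs, had 44.3, 27.7 and 31.3 CPM untreated, 13.5 and 13.6 CPM dilated and 48.4, 48.7 and 34.6 CPM constricted. Dilated libraries were below all others, and Gnal fell by 1.11 ± 0.22 (SE, edgeR adjusted p = 0.0049), a call that only leaving out dilated replicate 1 removed among 17 alternatives (adjusted p = 0.0522). Gnal overlaps another gene on the same strand. In sphincter 2 its order was the reverse, with 0, 4.16 and 10.4 CPM untreated and 33.3 and 17 CPM dilated, from 9 and 14 UMIs, too few for a test within that cluster.

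Gnas, the Gs alpha subunit (chromosome 2, 174284320 to 174346744, plus strand, an imprinted locus with several transcripts), had 353, 381 and 382 CPM untreated, 492 and 518 CPM dilated and 311, 322 and 379 CPM constricted in dilator muscle. Gnas rose by 0.63 ± 0.15 (SE, edgeR adjusted p = 0.016) with no overlap, near the fold limit, and dropped below the limit or the threshold under 6 of 17 alternatives (0.44 with UMI totals). In stroma 2 it had 567, 675 and 629 CPM untreated and 795 and 982 CPM dilated, a change of 0.56 ± 0.18 that was not called (SE, edgeR adjusted p = 0.209). In sphincter 1, with 371, 475 and 395 CPM untreated and 305 and 374 CPM dilated, the groups overlapped, and the effect in dilator muscle was 0.87 above that in sphincter 1 under a joint fit, called in all 13 alternatives. Thus Gnas and Gnal, both of the Gs class, changed in opposite directions in dilator muscle.

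Gnaz, a Gi/o-class subunit with slow GTP hydrolysis (chromosome 10, 74967177 to 75016907, plus strand), had 8.10, 8.30 and 7.75 CPM untreated, 2.86 and 3.61 CPM dilated and 6.97, 8.42 and 9.0 CPM constricted. It fell by 1.17 ± 0.32 (SE, edgeR adjusted p = 0.0272) without overlap, and the call was lost without dilated replicate 1, without dilated replicate 2, without untreated replicate 2 and without untreated replicate 3 (adjusted p up to 0.212). Sphincter 1, where its level was higher, had 26.9, 17.5 and 20.8 CPM untreated and 27.3 and 20.8 CPM dilated. Gnao1, with far more UMIs than Gnaz, had 756, 633 and 622 CPM untreated and 462 and 418 CPM dilated in dilator muscle, but its change of -0.41 ± 0.13 passed neither limit (SE, edgeR adjusted p = 0.054).

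Gng5 and Gng7 moved in opposite directions. Gng5 (chromosome 3, 146499807 to 146505572, plus strand) had 71.7, 59.8 and 67.9 CPM untreated, 109 and 80.8 CPM dilated and 77.6, 43.9 and 75.8 CPM constricted in dilator muscle, and rose by 0.70 ± 0.20 (SE, edgeR adjusted p = 0.0369). Gng7, the partner of Gnal in striatum (chromosome 10, 80948624 to 81014945, minus strand), had 21.8, 22.7 and 21.4 CPM untreated, 12.9 and 9.42 CPM dilated and 28.5, 21.7 and 16.1 CPM constricted, and fell by 0.79 ± 0.24 (SE, edgeR adjusted p = 0.0432). In neither gene did the dilated and untreated libraries overlap, but Gng5 lost its call under 6 of 17 alternatives and Gng7 under 7, including the omission of either dilated library (adjusted p up to 0.213 and 0.23). No beta subunit was called, and Gnb1 (229, 208 and 231 CPM untreated, 237 and 192 CPM dilated) overlapped between the groups.

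Receptor kinases and beta-arrestins had no call with dilation, other than under the library series term described here. In dilator muscle, Grk6 had 17.5, 22.5 and 21.0 CPM untreated and 30.2 and 21.8 CPM dilated, and Arrb2 had 12.5, 12.5 and 13.4 CPM and 10.6 and 9.22 CPM. In stroma 2, Grk5 had 154, 75.1 and 73.9 CPM untreated and 247 and 125 CPM dilated, with a change of 1.00 ± 0.30 that was not called (SE, edgeR adjusted p = 0.163), and replicate 1 was the highest library in both conditions. Also in stroma 2, Gnaq had 665, 598 and 642 CPM untreated and 449 and 336 CPM dilated and was not called (-0.65 ± 0.20, SE, edgeR adjusted p = 0.156). With a term for the series of consecutive library numbers the 11 calls were kept and 8 more pairs were called by edgeR, which were Arrb1 (-1.25) and Rgs12 (-0.61) in dilator muscle, Gng11 (-0.81) and Rgs6 (-1.33) in iris PE, and Gnaq (-0.71), Gnas (0.61), Gng2 (-0.78) and Grk5 (0.83) in stroma 2. The share of all genes called with that term is not given here. The added calls therefore cannot be read as particular to the members. The other 7 cell types (CB, CBE, endothelial cells, iris PE, leukocytes, sphincter 2 and stroma 1) had 8 to 39 members tested and none called by edgeR, with 0 to 4 members each at an unadjusted p under 0.05. Of all genes, 0.0665% were called in CB, 0.0122% in CBE, 0.0% in endothelial cells, 0.595% in iris PE, 1.32% in leukocytes, 2.87% in sphincter 2 and 1.17% in stroma 1.

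Rgs6 had its highest levels in the ciliary body clusters, with 2302, 1486 and 1462 CPM in untreated CB and 861, 673 and 834 CPM in CBE. Per kb it was below Rgs11 in both, with 3.05 against 8.25 CPM per kb in CB and 1.38 against 13.7 in CBE. In dilator muscle the 3 highest libraries were untreated replicate 1 (61.1 CPM), constricted replicate 2 (53.6 CPM) and dilated replicate 1 (47.4 CPM), in which ciliary nuclei held 12.1%, 14.2% and 15.4% of UMIs. The lowest were constricted replicate 3 (19.0 CPM) and untreated replicate 3 (25.3 CPM), with 3.1% and 3.89%. In stroma 2, Rgs6 had 81.9 and 6.42 CPM in the 2 dilated libraries, and a change of 1.92 ± 0.79 that was not called (SE, edgeR adjusted p = 0.349). The part of the ciliary share in these levels was not tested, and Rgs6 was not called between conditions within a cell type, except lower with dilation in iris PE when a library series term was fitted (-1.33, edgeR adjusted p = 0.0019).

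**Figure D5:**
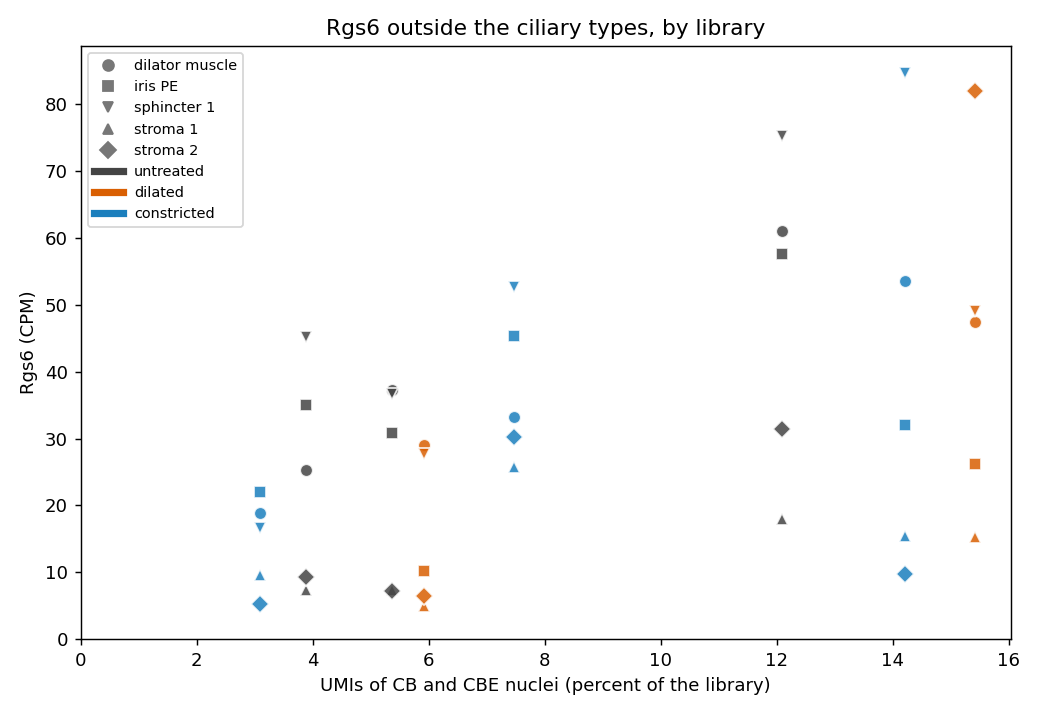
Rgs6 level (CPM, y axis) in dilator muscle, iris PE, sphincter 1, stroma 1 and stroma 2 (symbols) of each library, coloured by condition, against the percent of that library's UMIs in CB and CBE nuclei (x axis). The 3 libraries above 12% had the 3 highest levels in dilator muscle. In each of the other 4 cell types plotted they were not all among the 3 highest. The highest were constricted replicate 2 (84.7 CPM) and untreated replicate 1 (75.3) in sphincter 1, and dilated replicate 1 (81.9) and untreated replicate 1 (31.4) in stroma 2. Untreated replicate 1 (57.7) was highest in iris PE and constricted replicate 1 (25.7) in stroma 1.

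Constriction was compared with the same 3 untreated libraries, so that both comparisons share their controls. None of the 259 pairs of member and cell type was called by edgeR, where 0.0118% of all pairs were, and none by DESeq2. At an unadjusted p under 0.05, 17 pairs passed (6.56%, against 5.25% of all pairs). In dilator muscle these were Gnal (0.41), Grk5 (0.33) and Rgs9 (-0.44 on the log2 scale). In sphincter 1, whose receptors pilocarpine acts on, only Rgs9 was among them (-0.84 ± 0.31, SE, edgeR adjusted p = 0.655). Rgs7 had overlapping untreated and constricted levels in dilator muscle and in sphincter 1 (values above).

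The dilation effect in dilator muscle was tested against that in each of the other 9 cell types. Of 365 pairs of member and cell type, 30 differed (8.22%) where 5.07% of all pairs did, with the effect in dilator muscle higher in 14 and lower in 16. They belonged to 10 genes. A member could enter the joint fit on its counts in dilator muscle alone. Of the 214 pairs in which the member also passed the filter within the other cell type by itself, 25 differed (11.7%), against 8.6% of all such pairs. The other 5 were Gnal against CBE and sphincter 2, Rgs6 against leukocytes, Rgs7 against CBE and Rgs9 against endothelial cells. Against iris PE 8 of 45 members differed (12.2% of all genes), against CBE 6 of 43 (4.18%), against sphincter 1 4 of 37 (6.71%) and against CB 3 of 37 (3.06%). Against stroma 1 3 of 38 members differed (5.73%) and against stroma 2 3 of 48 (8.13%). One member each differed against sphincter 2 (2.1%), leukocytes (0.746%) and endothelial cells (0.528%). The effect on Rgs7 was higher in dilator muscle than in CBE, iris PE, sphincter 1, stroma 1 and stroma 2, and that on Rgs7bp lower than in CB, CBE, iris PE, sphincter 1, stroma 1 and stroma 2. For Rgs7bp against stroma 2 the difference was -1.22 ± 0.22 (SE, edgeR adjusted p = 0.0019). Rgs2, called in both, had a difference of 0.05 ± 0.30 (SE) between dilator muscle and stroma 2 that was not called (edgeR adjusted p = 0.962).

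Other genes of the pathway, taken from 10 lists of 40 genes, were described by counts. In dilator muscle 32 were tested, 1 was higher and 3 were lower with dilation, where 7.2% of all genes were called higher and 6.14% lower, and their median log2 fold change was 0.06 against 0.02 over all genes. Kcnj3, a subunit of the potassium channel opened by beta-gamma dimers, had 167, 212 and 213 CPM untreated and 73.3 and 80.8 CPM dilated, and fell by 1.18 ± 0.20 (SE, edgeR adjusted p = 0.0016). Kalrn, a guanine nucleotide exchange factor of the Trio family, had 480.0, 358 and 401 CPM untreated and 187 and 150.5 CPM dilated, and fell by 1.10 ± 0.15 (edgeR adjusted p = 0.00055). Prex2, a RacGEF that beta-gamma activates, had 14.3, 8.16 and 8.23 CPM and 4.34 and 3.81 CPM, and fell by 1.04 ± 0.30 (SE, edgeR adjusted p = 0.0373). Arr3, the cone arrestin, was higher, from 1.25, 1.13 and 0.791 CPM to 24.0 and 8.02 CPM, a rise of 4.13 ± 0.49 (SE, edgeR adjusted p = 0.00019). The 5 cone markers, of which Arr3 is one, summed to 90.3 to 141 CPM in untreated and 62.5 to 73.6 CPM in dilated dilator muscle. Arr3 was only 0.791 to 1.25 CPM of the untreated sum, which thus mostly follows other genes of the list. Whether cone material was present was not tested. In iris PE, where 0.595% of all genes were called, Plcb1 was the only one of 31 listed genes called and rose by 0.84 ± 0.16 (SE, edgeR adjusted p = 0.0357), from 119, 124 and 141 CPM to 250.2 and 199.7 CPM. None of the listed genes was called with constriction by edgeR in any of the 10 cell types.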

How the data were processed

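Nuclei of 8 iris libraries (3 untreated, 3 constricted, 2 dilated) were analysed, grouped by the sample labels. The authors used 10x Chromium 3′ chemistry, and counted UMIs with Cell Ranger 3.1.0 on an mm10 index of pre-mRNA, so that introns count. The deposited counts are whole UMIs per gene and nucleus, given with the authors' cell types. The deposited mitochondrial percent of each nucleus was below 1%, as the authors filtered it in Seurat. Libraries were processed by the authors in 5 batches and 2 sequencing runs, whose assignment is not given in the sources used here. Doublets were not called here. No column of another series was present (0).

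Sums of UMIs over the nuclei of each library and cell type were tested two-sided with edgeR 4.0.16 (TMM, filterByExpr, quasi-likelihood, R 4.3.3) over all 8 libraries of a cell type, adjusted by Benjamini-Hochberg over all genes. Effects in dilator muscle and another cell type were compared in a joint fit with library terms, called at an adjusted p under 0.05. DESeq2 1.42.0, RLE, UMI totals, no filter, the 5% deepest nuclei, a replicate block, a library series term and leaving out each library were alternatives. UMI totals, shared barcodes and pairs tested in both cell types were chosen after seeing the data. The tests were run on simulated data, drawn without effects shared within a library or a library series. That check therefore does not cover such effects. Gene spans came from GENCODE vM21, matched by name for 22498 of 22873 genes.

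The members and lists were chosen with earlier results of these data known. Genes named with values were those called in any cell type, the leader of each class per kb in the 3 muscle clusters, the restricted members and examples of uncalled members near the threshold. The count of nuclei with at least 2 Rgs7 UMIs and the Rgs6 levels beside the ciliary share were chosen after values were seen.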

Additional observations from a re-analysis of the deposited data

Results flagged for a closer look

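The dilation effect on 10 members differed between dilator muscle and another cell type by a test of the difference itself (edgeR joint fit, adjusted over all genes). All values are the effect in dilator muscle minus that in the other cell type, on the log2 scale, and share the dilator libraries.

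For Rgs7 the difference was 2.14 against CBE, 2.58 against iris PE, 4.29 against sphincter 1, 2.35 against stroma 1 and 1.95 against stroma 2. For Rgs7bp it was -2.09 against CB, -1.21 against CBE, -1.0 against iris PE, -1.24 against sphincter 1, -1.15 against stroma 1 and -1.22 against stroma 2. Rgs9 differed by -0.99 from CB, by -1.35 from CBE, by -3.29 from endothelial cells, by -1.12 from iris PE and by -1.71 from sphincter 1. Rgs6 differed by 1.18 from iris PE and by -2.45 from leukocytes.

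Gnas had differences of 0.70 against CBE, 0.54 against iris PE, 0.87 against sphincter 1 and 0.79 against stroma 1. Gnal had -2.19 against CBE, -0.81 against iris PE and -2.93 against sphincter 2. Gng5 had 1.10 against CBE and 0.67 against iris PE, and Gng11 had 0.67 against iris PE. The effect on Gnao1 differed by -1.04 from that in CB, and the effect on Gnaq by 0.62 from that in stroma 2.

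The members Gnal (against CBE and sphincter 2), Rgs6 (against leukocytes), Rgs7 (against CBE) and Rgs9 (against endothelial cells) had too few UMIs for a test within the other cell type by itself, and passed the joint filter through dilator muscle. These 5 values rest on few UMIs in the other cell type: 9 and 14 for Gnal in sphincter 2 (untreated and dilated), and 5 and 14 for Rgs9 in endothelial cells. By library, Rgs7 in CBE had 10, 2 and 4 UMIs untreated and 33 and 1 dilated. Rgs6 in leukocytes had 0, 8 and 0 UMIs untreated and 28 and 1 dilated. For both, nearly all dilated UMIs came from dilated replicate 1.

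The differences called under all 13 alternatives were those of Rgs7 (iris PE and sphincter 1), Rgs7bp (CB, iris PE and stroma 2), Gnas (iris PE and sphincter 1), Rgs6 (iris PE) and Rgs9 (sphincter 1). The other 21 were lost under at least 1.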

How the results depend on the processing

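Of 11 calls with dilation, leaving out 1 library left 4 to 12, with 4 without untreated replicate 2 and 6 without either dilated library or without untreated replicate 3. The higher calls (5) ranged from 1 to 6 and the lower calls (6) from 2 to 7. Without the low-count filter 20 calls were made, 11 of them higher, and with a library series term 19, 12 of them lower, which kept the 11 and added Arrb1 and Rgs12 in dilator muscle, Gng11 and Rgs6 in iris PE, and Gnaq, Gnas, Gng2 and Grk5 in stroma 2. With UMI totals 2 were higher and 10 lower, and without the 5% deepest nuclei 3 were higher. The cause was not tested, and the shares of all genes called without the filter and with the series term are not given here. No member was called with constriction under any alternative run, with 0 to 0 on leaving out a library. The 30 differences of effect ranged from 14 (without dilated replicate 1) to 32, with 19 without untreated replicate 2 or without untreated replicate 3, and 25 were among pairs tested in both cell types, an alternative chosen after seeing the data. The difference of Rgs6 between dilator muscle and leukocytes was reversed to 0.27 without dilated replicate 1, and ranged down to -10.15 without untreated replicate 2. The 10 restricted members became 8 to 9 without 1 untreated library, of which 7 or 8 were among the 10. Over the 11 calls, 151 values under alternatives kept their side of the threshold and 36 lost it, and none changed direction.

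Replicate numbers were not taken to pair the libraries: in dilator muscle the deviations of same-numbered untreated and constricted libraries correlated at 0.25, -0.015 and 0.28. The replicate 1 libraries, numbered consecutively in the labels, correlated with each other (0.25, 0.23 and 0.43), and constricted replicate 3 with dilated replicate 2 (0.42), whose library numbers also follow each other. With 2 dilated libraries, the deviation of one is the exact reverse of the other. Constricted replicate 3 thus correlated with dilated replicate 1 at -0.42, and the values for dilated libraries are not separate. A replicate block gave 13 calls with dilation (5 higher, 8 lower) and 0 with constriction, and the share of all genes called with it is not given here. With 2 dilated libraries, low counts limited tests in the small clusters, where 8 members could be tested in endothelial cells and 15 in leukocytes.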
